A study of Drosophila melanogaster with 12 samples.

Results

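Binding of the Hox protein Ultrabithorax (Ubx) was examined at 10 genes of the Wingless and Wnt signalling pathway in the haltere imaginal disc of Drosophila melanogaster. The haltere disc is the larval epithelium that forms the haltere, a small club-shaped appendage used in flight control, and Ubx is the protein that sets it apart from the wing disc. The genes were taken by their symbols from a Release 6 gene table, each with 10 kb on both sides, and are 10 of 13946 protein-coding genes of that table on the chromosome arms. They were the ligand genes wg, Wnt4, Wnt6 and Wnt10, the receptor genes fz2 and fz3, the feedback genes nkd and Notum, and Axn and arm, whose products work inside the receiving cell. Chromatin immunoprecipitation with sequencing (ChIP-seq) used a polyclonal antibody to the N-terminal part of Ubx. The material was whole haltere discs of wild-type Canton S larvae, wandering at the end of the third instar. The series holds 12 samples in 4 groups of 3, of which the 3 haltere Ubx ChIP libraries, biological replicates with 1 peak list each, were used together with the authors' consensus list. The other groups (6 wing disc libraries, Ubx ChIP and input, and 3 haltere inputs, from the same strain and stage) were not analysed here, and no haltere value is set against a wing value. Whole discs mix several cell populations, and a peak does not say in which of them the site was occupied.

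Wingless is a secreted protein that binds a Frizzled receptor with the co-receptor Arrow. The signal stops the destruction complex, built on Axin, from breaking down Armadillo, the fly β-catenin, which then enters the nucleus and works with the factor Pangolin to switch on target genes. In the wing disc, Wingless is made along the boundary between the dorsal and ventral compartments and is needed for the blade and its margin. In the haltere disc, Ubx is known to keep Wingless out of the posterior compartment of that boundary. The pathway also limits itself: Notum, Naked cuticle and Frizzled 3 are induced by the signal and dampen it, and Wingless lowers the level of its own receptor Frizzled 2.

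The libraries gave lists of 2869, 2361 and 3859 peaks in replicates 1, 2 and 3. A peak carries the authors' fold, a linear ratio of ChIP signal over local background at its summit. Median fold was 4.35, 4.05 and 4.40 in the 3 lists, and the depth behind each list is unknown. A consensus region is a stretch covered by peaks of at least 2 libraries. The authors' list holds 2171 of them, of which 927 (42.7%) recurred in every library. Within 10 kb of the Ubx gene, which is known to act on its own locus, there were 11 regions, and 7 recurred in every library. All positions are 1-based, on the build BDGP6 named in the submitters' processing notes, which is Release 6.

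Ubx regions lay mainly at the receptor gene fz2, at the feedback genes nkd and Notum, and at Wnt10. A consensus region lay within 10 kb of 7 of the 10 genes, against 17.7% of all protein-coding genes. A region in all 3 libraries lay at 5 of the 10, against 8.76% of all protein-coding genes. The 10 genes were chosen with earlier results of these data known, so these shares only describe them. With 2 kb on both sides in place of 10 kb, 4 members had a consensus region, against 7.64% of all genes, and the same 4 had one inside the gene, against 4.85%. Together the 7 genes had 25 different consensus regions, of which 14 were in all 3 libraries. That is 56.0% of the 25 (95% Wilson interval 37.1 to 73.3%, which covers counting error over regions only), and the interval includes the 42.7% of the whole list. The number of regions rested on replicate 3, without which it was 15. It was 21 without replicate 1 and 21 without replicate 2. The members are longer than most genes, with a median of 14.2 kb against 2.16 kb, and long genes have more regions. Among members under 20 kb, 4 of 7 had a region, against 16% of all genes of that length, and 3 had one in all 3 libraries, against 7.68%. From 20 to 50 kb it was 2 of 2, against 37.3%, and 1 of 2 in all 3 libraries, against 19.7%. The only member of 50 kb or more, fz2, had both, as did 45% and 28.8% of such genes.

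**Figure D1:**
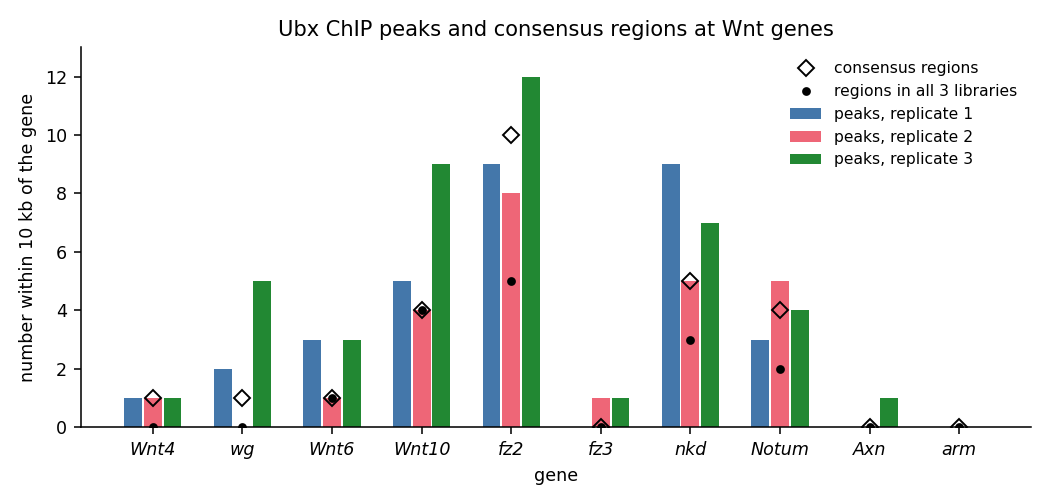
Number of peaks in each of the 3 libraries (bars), of consensus regions (diamonds) and of regions in all 3 libraries (dots) within 10 kb of each gene. The receptor gene fz2 has 9, 8 and 12 peaks, whereas arm has none and Axn 1.

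Peaks were called at 7 members in replicate 1, against 28.9% of all protein-coding genes, at 7 in replicate 2, against 21.3%, and at 9 in replicate 3, against 32%. All 3 libraries had a peak at 6 members, shared or not, against 11.7% of all genes. In all, 31 peaks of replicate 1, 24 of replicate 2 and 40 of replicate 3 lay in the windows. Of these peaks, 61.3%, 83.3% and 62.5% overlapped a consensus region, against 48.7%, 73.9% and 53.4% of the whole lists.

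The 4 ligand genes lie side by side on 2L in the order Wnt4, wg, Wnt6 and Wnt10, over 122 kb from the first gene to the last. The peaks that recurred lay at the Wnt10 end of this cluster. The cluster had 6 consensus regions, 4.54 per 100 kb of window, against 1.58 per 100 kb over the chromosome arms. Of the 6, the 4 nearest to Wnt10 were in all 3 libraries, and the regions nearest to Wnt4 and wg were each in 2.

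**Figure D2:**
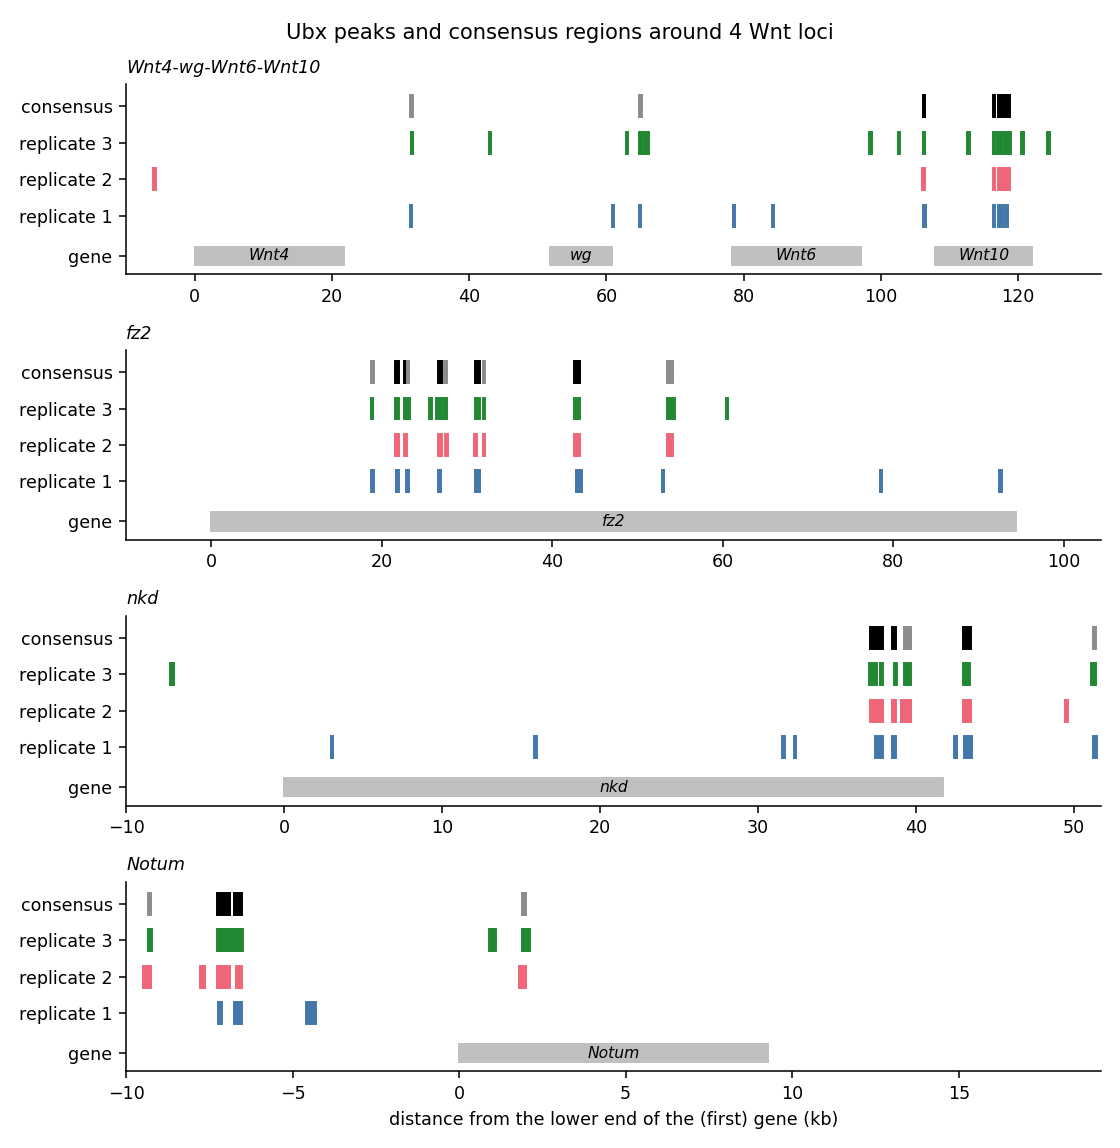
Maps of the ligand cluster, fz2, nkd and Notum with 10 kb on both sides, as distance in kb from the lower end of the first gene. Grey bars mark genes, coloured bars the peaks of each library, black bars consensus regions in all 3 libraries and grey ones regions in 2 libraries, with narrow features widened so as to be visible. Regions gather at the Wnt10 end of the cluster, in a 35.4 kb stretch inside fz2, at the upper end of nkd and below the lower end of Notum.

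A percentile here is the share of a library's peaks with the same or a lower fold. The gene wg (2L:7307159-7316265) encodes the main Wnt ligand of the wing and haltere discs. It had 2, 0 and 5 peaks in replicates 1, 2 and 3, within 10 kb. Only 1 stretch was shared, at 2L:7320302-7320436, 4037 bp beyond the gene's upper end (upper and lower ends are those of higher and lower coordinate, since the gene table gives neither strand nor exons). Its fold was 3.84 in replicate 1 and 3.18 in replicate 3, at percentiles 27.5 and 9.51 of these lists, so it was weak in both. It counts as 0 regions when replicate 1 or replicate 3 is left out. No peak of any library lay inside wg. The nearest was a replicate 1 peak 37 bp beyond its upper end, with a fold of 5.06 at percentile 69.8, which no other library had. Replicate 3 had its strongest peak of the window 2072 bp from the gene, with a fold of 5.24 at percentile 69.2. On the other side of the gene, replicate 3 had a peak 8610 bp away, with a fold of 3.49 at percentile 19.6. Replicate 2 had no peak in the wg window.

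Wnt4 (2L:7255419-7277171) encodes a Wnt ligand that can act against Wingless in some tissues. It had 1 peak in each library within 10 kb. Replicates 1 and 3 shared a stretch at 2L:7286973-7287084, 9802 bp from the gene and just inside the window. The fold there was 6.89 in replicate 1, at percentile 91.1, and 4.15 in replicate 3, at percentile 42.8. Replicate 2 had no peak there, and its nearest was 635 bp further on, 10549 bp from Wnt4 and so outside the window, with a fold of 4.72. The region counts as 0 without replicate 1 or without replicate 3.

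Wnt6 (2L:7333714-7352542) and Wnt10 (2L:7363379-7377528) encode further Wnt ligands, with 10.8 kb between the genes. The region in that gap, at 2L:7361574-7361822, was in all 3 libraries and is 1557 bp from Wnt10 and 9032 bp from Wnt6. It is the only consensus region of the Wnt6 window. Its fold was 3.92, 7.65 and 7.78 in replicates 1, 2 and 3. The values of replicates 2 and 3 stood at percentiles 95.1 and 91.2, whereas that of replicate 1 stood at 29.98. Wnt6 had 3, 1 and 3 peaks in replicates 1, 2 and 3. Inside Wnt6 itself, replicate 1 had peaks with folds of 4.90 and 2.997, and neither recurred.

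Wnt10 had 5, 4 and 9 peaks in replicates 1, 2 and 3 within 10 kb. Inside the gene, 3 regions in all 3 libraries lay in a stretch of 2.42 kb. The first, at 2L:7371769-7372100, had folds of 4.14, 4.16 and 5.40 in replicates 1, 2 and 3. The second, at 2L:7372430-7373178, had 3.92, 5.22 and 7.13. The third, at 2L:7373438-7374188, had 4.01, 4.49 and 7.18. Replicate 1 gave the lowest percentile of the 3 libraries at each of the 4 regions of Wnt10, where its values ran from 29.98 to 40.9 over the strongest peak per region. In replicates 2 and 3 those regions stood between percentiles 53.3 and 95.1. The number of Wnt10 regions was 4, a number that 1.68% of protein-coding genes other than histone genes reached or passed. That share is over genes of all lengths, and none was taken for genes as long as Wnt10, 14.15 kb. Histone genes are set aside in that share because the windows of their tandem copies overlap, so that 1 region is counted at many genes.

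All 10 consensus regions of the receptor genes lay inside fz2 (3L:19140975-19235373), which encodes a high-affinity receptor for Wingless, and there was none at fz3. The fz2 gene had 9, 8 and 12 peaks in replicates 1, 2 and 3, a mean of 9.67 ± 2.08 (SD, n = 3). Of its 10 regions, 5 were in all 3 libraries. The number fell to 5 when replicate 3 was left out, and was 8 without replicate 1 and 7 without replicate 2. All 10 lay within 35.4 kb, or 37.5% of the 94.4 kb gene, and no consensus region lay in the first 18.8 kb or the last 40.2 kb. Counts of 10 or more were found at 12 of 13831 protein-coding genes other than histone genes (0.0868%), and at 3.19% of the 313 genes of 50 kb or longer. The other 11 genes were ex, osa, Ubx, jing, shn, tkv, Tet, ds, hth, SKIP and sbb, named after their values were seen.

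**Figure D3:**
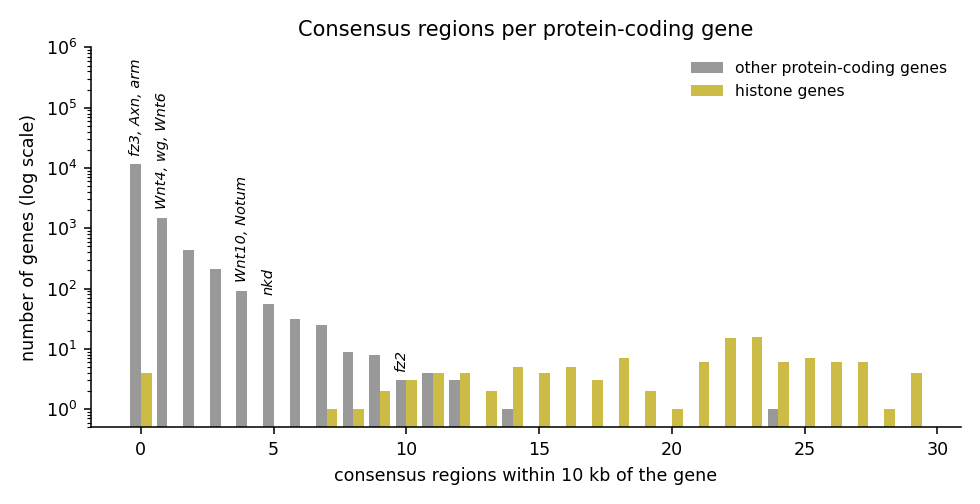
Number of protein-coding genes (log scale) by the number of consensus regions within 10 kb, with histone genes shown apart from the others and the members named above their bar. With 10 regions fz2 is in the far tail of the genes other than histone genes, nkd has 5, Wnt10 and Notum have 4, and fz3, Axn and arm have 0.

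The strongest of the fz2 regions in all 3 libraries was at 3L:19167604-19167991, fz2 region 5. Its fold was 9.66, 9.64 and 11.9 in replicates 1, 2 and 3. It ranked 52nd of 2869, 40th of 2361 and 71st of 3859 peaks, with percentiles of 98.2, 98.3 and 98.2, and the 3 summits lay within 5 bp. The second, at 3L:19183528-19184235, overlaps the non-coding gene lncRNA:CR45941 inside fz2. Its fold was 5.79, 10.6 and 13.8 in replicates 1, 2 and 3. Replicates 2 and 3 put it at ranks 20 and 28, their highest among the members, and replicate 1 at rank 530.

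The library replicate 1 also differed from the others at further fz2 sites. At 3L:19194401-19195138 the fold was 7.66 in replicate 2 and 10.4 in replicate 3, at percentiles 95.2 and 96.8, and replicate 1 had no peak in the region. Its nearest peak there was separate, with a fold of 3.52 at percentile 16.3. At 3L:19162569-19162943 the folds were 3.56, 7.09 and 9.21 in replicates 1, 2 and 3, which is percentile 16.7 in replicate 1 and percentiles 93.2 and 95.3 in the others. The opposite held at 3L:19171853-19172453, where folds of 8.65, 3.56 and 4.14 stood at percentiles 96.7, 30.2 and 42.5 in replicates 1, 2 and 3. The remaining region in all 3 libraries, at 3L:19163575-19163893, had folds of 3.91, 4.19 and 3.55, at percentiles 28.7, 54.3 and 22.1. The other 4 regions of fz2, each in 2 libraries, stood between percentiles 12.2 and 60.9.

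At fz3 (X:769945-784222), a Frizzled family gene induced by Wingless, replicate 1 had 0 peaks within 10 kb and the other libraries had 1 each. The replicate 2 peak lay inside the gene at its upper end, with a fold of 5.76 at percentile 84.1. The replicate 3 peak lay 192 bp beyond the lower end, with a fold of 4.33 at percentile 48.8. They lay at opposite ends of the gene and shared nothing, so no region was recovered. With depth unknown, the lack of a peak says only that none passed the authors' limit.

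The feedback genes nkd and Notum had 9 consensus regions, of which 5 recurred in every library, and 9.89 regions per 100 kb of window. Without replicate 3 the number was 5, without replicate 1 it was 9 and without replicate 2 it was 7. The share in all 3 libraries was 55.6% (95% Wilson interval 26.7 to 81.1%), against 50% for the receptors (23.7 to 76.3%) and 66.7% for the ligand cluster (29.999 to 90.3%). These intervals overlap widely and cover counting error over regions only. They treat regions as independent, although some neighbouring regions at Notum and at fz2 share a peak. The difference between the 3 groups of genes was not tested.

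The gene nkd (3L:19003741-19045449) encodes Naked cuticle, which binds Dishevelled inside the cell and holds the signal back. It had 9, 5 and 7 peaks in replicates 1, 2 and 3, a mean of 7 ± 2 (SD, n = 3), and 5 consensus regions. Counts of 5 or more were found at 1.02% of protein-coding genes other than histone genes. These genes are of all lengths, and no share was taken for genes as long as nkd, 41.7 kb. Without replicate 3 there were 3 regions, and without replicate 1 or 2 there were 5. The strongest lay outside the gene, 1263 bp beyond its upper end, at 3L:19046712-19047183. Its fold was 7.08, 10.6 and 8.34 in replicates 1, 2 and 3. It stood at percentiles 92.0, 99.1 and 93.3, high in each library, and its summits lay within 53 bp.

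Another 3 regions lay inside nkd within 2.54 kb, close to that same end. At 3L:19040852-19041628 the folds were 4.96, 5.91 and 7.44 in replicates 1, 2 and 3. At 3L:19042243-19042479 they were 3.51, 4.88 and 3.84, a weaker site whose 3 summits fell on the same base. At 3L:19042949-19043392 the fold was 6.28 in replicate 2 and 6.70 in replicate 3, and replicate 1 had no peak. The 37.1 kb of the gene below these regions held no consensus region, although replicate 1 had 4 peaks of its own there. The region farthest from nkd, at 3L:19054942-19055124, was 9493 bp away, was missing in replicate 2 and lies nearer to CG43407. A region in all 3 libraries at 11802 bp lay outside the window.

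Notum (3L:16023480-16032752) encodes a secreted enzyme that removes the lipid from Wnt proteins and so inactivates them. It had 3, 5 and 4 peaks in replicates 1, 2 and 3, and 4 consensus regions, of which 2 recurred in every library. With replicate 2 or replicate 3 left out the number was 2, and without replicate 1 it was 4. Both recurrent regions lay below the gene's lower end, at 3L:16016219-16016595 and 3L:16016706-16016966, 6885 and 6514 bp away. In replicate 3 a single peak with a fold of 7.51 spanned them. Replicate 2 had separate peaks with folds of 5.92 and 5.04, and replicate 1 had folds of 3.10 and 3.90, at percentiles 4.46 and 28.4. The region inside Notum, at 3L:16025365-16025473, had folds of 3.99 in replicate 2 and 3.801 in replicate 3 and no peak in replicate 1.

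The place of the Notum regions leaves their gene uncertain, since mib1, which encodes a ubiquitin ligase of the Notch pathway, is nearer to 3 of the 4. When each region was given only to its nearest protein-coding gene, Notum kept 1. Of the 25 regions at the members, 21 had a member as the nearest protein-coding gene, and 17 overlapped a member gene. Just outside the window, a region in all 3 libraries lay 10809 bp beyond the upper end of Notum. Its folds were 8.57, 3.92 and 5.86 in replicates 1, 2 and 3.

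No consensus region was found at the 2 genes of signal transduction. At arm (X:1891401-1900646), which encodes the fly β-catenin, no library had a peak within 10 kb, as at 52.5% of all protein-coding genes. At Axn (3R:30022842-30035311), which encodes the scaffold of the destruction complex, replicate 3 had 1 peak 8720 bp from the gene, with a fold of 4.83 at percentile 61.3. Replicates 1 and 2 had none. Both genes have close neighbours, with 8 other protein-coding genes in the arm window and 11 in the Axn window.

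Across the 10 genes, the peaks were spread over the whole range of fold within each list. The median percentile was 40.9, 73.0 and 53.3 in replicates 1, 2 and 3, a mean of 55.7 ± 16.2 (SD, n = 3), where a list's own median is the 50th percentile. The spread between libraries was thus larger than the distance of that mean from 50. By group, the median percentile in replicates 1, 2 and 3 was 34.0, 63.4 and 42.8 for the ligand cluster, 48.2, 84.1 and 55.8 for the receptors, and 58.1, 73.0 and 60.7 for the feedback genes. The ligand cluster had the lowest median of these 3 groups in each library, and the receptors and feedback genes changed places between libraries. The receptor median of replicate 2 is the value of its unshared fz3 peak. For fz2 alone the replicate 2 median was 73.8, close to that of the feedback genes. These are medians over 5 to 15 peaks a library, and the difference between groups was not tested. Above the 95th percentile, where about 5% of a whole list lies, there were 2 of 31, 5 of 24 and 4 of 40 peaks in replicates 1, 2 and 3. These belonged to fz2, apart from 1 replicate 2 peak at nkd and 1 at Wnt10.

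**Figure D4:**
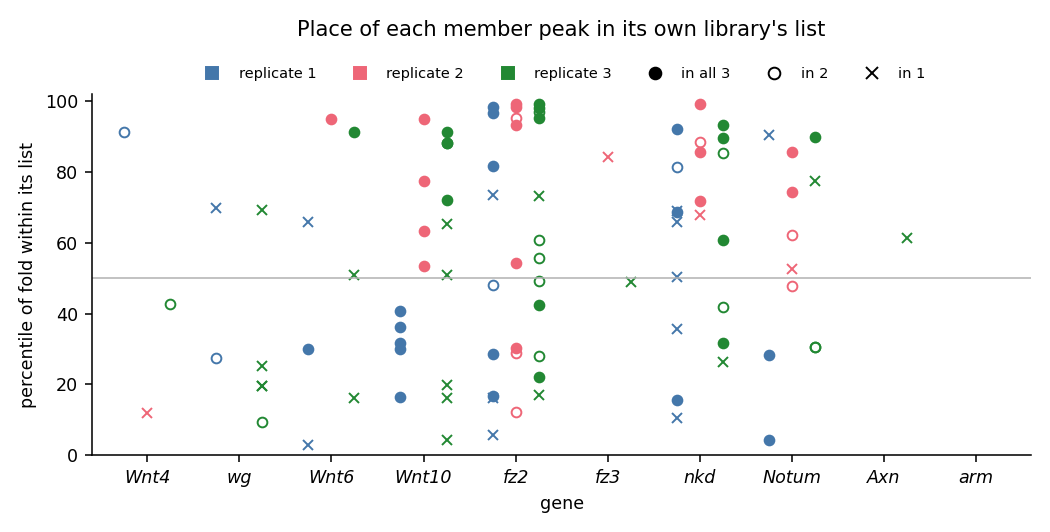
Percentile of the fold of each peak within its own library's list, by gene and library. Filled circles are peaks in regions of all 3 libraries, open circles those in regions of 2, and crosses peaks of 1 library; a peak in the windows of both Wnt6 and Wnt10 is drawn at each. Peaks above the 95th percentile sit at fz2 except for 1 at nkd and 1 at the site between Wnt6 and Wnt10, and the replicate 1 peaks of Wnt10 lie below 50.

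The 14 regions in all 3 libraries were compared for how well the libraries matched. The 3 summits lay within a median of 61.5 bp of each other, against 71 bp over the 927 such regions of the whole list, and 8 of the 14 were within 100 bp. A summit here is that of the library's strongest peak overlapping the region. The widest span was 662 bp, at the first region inside nkd, where replicate 3 had 2 peaks. The weaker of these peaks had its summit at 3L:19041564, and the replicate 1 summit was at 3L:19041539. The stronger had its summit at 3L:19040877, and the replicate 2 summit was at 3L:19040990. The next widest span was 620 bp, at the Notum region 3L:16016706-16016966. There the summit of the replicate 3 peak, at 3L:16016312, lay outside the region. At the second region inside Wnt10, with a span of 474 bp, replicate 1 had 2 peaks. Replicate 1 gave the lowest percentile at 11 of the 14, against 51.5% of the whole list, and replicate 3 the highest at 8, against 54.8%. The order of fold over the 14 regions was close in replicates 2 and 3 (Spearman's rho 0.898, against 0.628 over the whole list). Between replicates 1 and 2 rho was 0.160 and between replicates 1 and 3 it was 0.246, against 0.374 and 0.365. These are descriptions over sites that share their libraries and, for the 2 Notum regions, a replicate 3 peak.

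**Figure D5:**
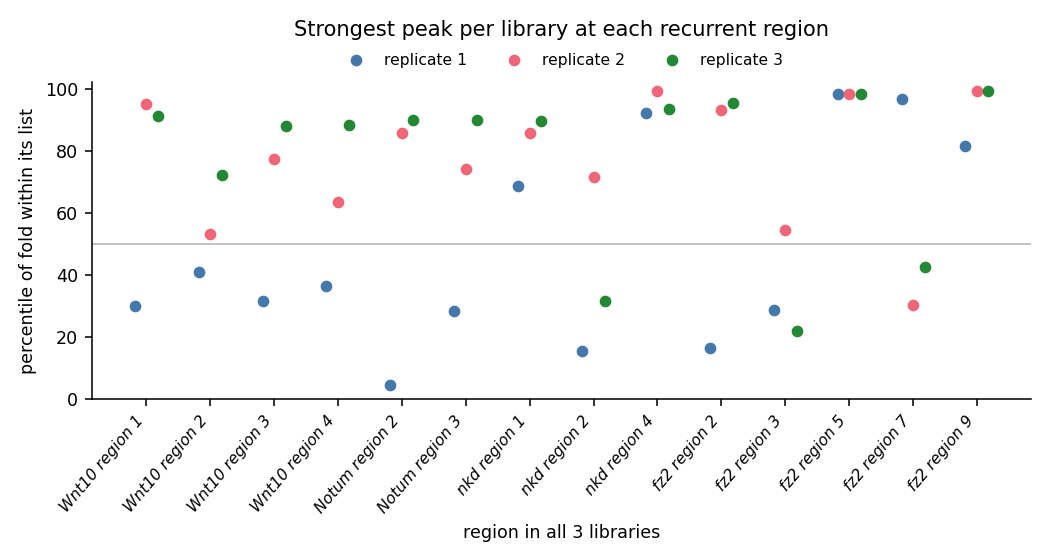
Percentile, within its own library's list, of the fold of the strongest peak in each library at the 14 regions in all 3 libraries. The fz2 region 5 stands above 98 in all 3 libraries, fz2 region 7 is high in replicate 1 only, and replicate 1 is lowest at the 4 Wnt10 regions.

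Another 34 genes of the pathway, apart from the 10, were listed by role. A consensus region lay within 10 kb of 16 of them (47.1%, against 17.7% of all protein-coding genes), and a region in all 3 libraries at 13 (38.2%, against 8.76%). The list was chosen with earlier results of these data known, so these shares only describe it. These genes too are long, with a median of 12.7 kb. Among those under 20 kb, 9 of 24 had a region, against 16% of all genes of that length. A region in all 3 libraries lay at 6 of these 24, against 7.68%. From 20 to 50 kb 4 of 7 had a region, against 37.3%, and 4 had one in all 3 libraries, against 19.7%. From 50 kb on 3 of 3 had a region, against 45%, and 3 had one in all 3 libraries, against 28.8%. Of the 16, the 3 besides those 13 had a region in 2 libraries only. Of the genes without a region, 6 had peaks. The other 12 of the 34 had no peak in any library, against 52.5% of all protein-coding genes.

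At the cell surface, 4 of 6 genes for receptors and co-receptors had a region (66.7%, against 17.7% of all protein-coding genes). Their median length was 18.3 kb, against 2.16 kb for all protein-coding genes. The co-receptor gene arr had 5 regions with 2 in all 3 libraries, otk had 3 with 2, drl had 2 with 1, and the receptor gene fz had 3 with 1. Both glypican genes had regions: dally had 9 with 2 in all 3 libraries, and dlp had 5 with 3. These are long genes, of 63.7 and 39.0 kb. A region lay at 45% of all genes of 50 kb or longer and at 37.3% of those of 20 to 50 kb. The glypicans are cell surface proteoglycans that bind Wingless and shape its spread.

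Of the 6 transduction and destruction complex genes, 2 had a region: the kinase gene sgg had 1, in all 3 libraries, and the kinase gene CkIalpha had 2 with 1. Of the 6 nuclear genes 1 had a region (16.7%, near the 17.7% of all protein-coding genes). It was CtBP, which encodes a co-repressor, with 1 region, in all 3 libraries. Neither of the 2 secretion genes, of median length 2.67 kb, had a region, and 16% of all genes under 20 kb had one. Among modulators 3 of 5 genes had one, with 3 regions at the kinase gene nmo and 2 at wdp, each with 1 in all 3 libraries. Of the 4 wing disc targets, 3 had regions. Dll, which encodes a homeodomain protein of the appendages, had 3, all in all 3 libraries, and vg, the wing selector gene, had 3 with 2. The share with a region was 33.3% for the transduction genes, 60% for the modulators and 75% for the wing disc targets, against 17.7%. Their median lengths were 6.27, 13.7 and 17.2 kb, against 2.16 kb for all protein-coding genes, so the groups also differ in length. These groups hold 2 to 6 genes each and no difference between them was tested.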

How the data were processed

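Per the submitters' processing notes, Trimmomatic 0.36, BWA and MACS2 and the build BDGP6 were used. The options, the control and the treatment of duplicate reads are not given in the sources used here. For each library the authors deposited 1 list of peaks with their position, summit, score, fold (linear ratio) and −log10 transformed p- and q-values. All peaks pass a −log10 q of 2. These numbers come from the authors' peak caller, and fold was ranked inside each list, so that libraries are set side by side by percentile. No read counts are given, so depth is unknown, and a deeper library can pass the same limit at more sites.

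Libraries were grouped by their titles. Overlap needed 1 bp. Stretches covered by at least 2 lists, rebuilt here, matched all 2171 deposited regions in start and end. Genes came from an NCBI RefSeq table of Release 6, without strand or exons. A percentile is the share of a list's peaks with the same or a lower fold. The 10 members, their groups and the pathway list were chosen with earlier results of these data known. All members are named. Of the pathway list, the genes with a region in all 3 libraries are named; all 34 matched, 1 through a synonym. With 1 group of samples there is no contrast, so no test was run: shares of all 13946 protein-coding genes are given as background, and their windows overlap. Counting code was tested on simulated intervals. The work was done in Python 3.11.15 with pandas 2.3.3, numpy 2.4.6 and, for the intervals, scipy 1.17.1.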

Additional observations from a re-analysis of the deposited data

How the results depend on the processing

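The members had 25 regions, and 13 when each list was reduced to its strongest 50% of peaks by fold. In that setting 4 regions and 2 members were found in all libraries, with 4 regions at the receptors and 5 at the feedback genes. With a −log10 q-value of at least 5, 7 regions and 3 members were in all libraries. When at least 50% of a region had to be covered, 8 regions were in all libraries. With a window of 2 kb, 4 members had a region (7.64% of all protein-coding genes did), 3 had one in all libraries, and the feedback genes had 5. With the gene body only, 4 members had a region (4.85% of all genes) and 3 had one in all libraries, with 3 regions in the ligand cluster and 4 at the feedback genes. When a region was given to its nearest gene only, 3 members had a region in all libraries and the feedback genes had 5. Leaving out each replicate in turn gave 15 to 21 regions at the members, 4 to 7 in the ligand cluster, 5 to 8 at the receptors, 5 to 9 at the feedback genes, and 5 to 7 members with a region. A setting with fewer peaks or a narrower window can only lose coverage by construction, but the number of regions can rise where a stretch splits. Without replicate 2 or without replicate 3, Wnt10 had 5 regions in place of 4. Without replicate 2 the ligand cluster had 7 in place of 6. Apart from the shares in brackets, no share of all protein-coding genes was taken in these settings. How far the other genes changed with the members is thus not shown. The other 79 main values stayed within 1.5 times, or within 1 SD for the median percentile. Axn, arm and fz3 had 0 regions in every setting. No paired analysis was possible because every library analysed here belongs to the haltere Ubx ChIP group. Unknown depth limits what a missing peak can show.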

Other observations

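Peaks of 1 library made up 31 of the 95 peaks at the members. The strongest of them by percentile was a replicate 1 peak at 3L:16018878-16019189, 4291 bp from Notum, with a fold of 6.74 at percentile 90.5. Next came the replicate 2 peak inside fz3, at percentile 84.1, and a replicate 3 peak inside Notum, with a fold of 5.80 at percentile 77.4. In the ligand cluster 13 of 30 peaks were of 1 library, at the feedback genes 10 of 33 and at the receptors 7 of 31. The share that overlapped a consensus region in replicates 1, 2 and 3 was 70%, 80% and 40% in the ligand cluster. It was 50%, 80% and 81.8% at the feedback genes and 66.7%, 88.9% and 76.9% at the receptors. Over the whole lists it was 48.7%, 73.9% and 53.4%, and no difference was tested. The wg window had 5 peaks of 1 library beside its 1 shared region.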
